A study of Arabidopsis thaliana with 6 samples.

Results

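A set of 125 genes of *Arabidopsis thaliana* was high in 1 RNA-seq library of wild-type shoot apices, WT replicate 3, and low in the other 5 libraries of the study. Among them are genes of the tapetum, the nurse tissue of the anther, such as *A6*, *MS2*, *ABCG26* and *UND*, as well as a pair of genes annotated as tapetum specific and 4 genes of lipid transfer proteins. The genes were chosen by their measured values, out of 33554 in the count table. A gene entered if its level in WT replicate 3 reached 5 CPM (counts per 1e6 of the library's summed counts) and was at least 8 times the larger of 0.1 CPM and the highest CPM in the other 5 libraries. These cut-offs were met by 135 genes. A list of 11 genes, mostly of the tapetum and the pollen wall, was left out by name, and 10 of the 11 met the cut-offs (*MS1* did not). Every value of WT replicate 3 given here is therefore a description, since it chose the genes.

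The study compared dissected shoot apices of WT plants of the Col-0 ecotype with those of *vip3-1*, a T-DNA insertion line in the same background, labelled as null for *VIP3*, which encodes a subunit of the Paf1 complex of RNA polymerase II. Plants of both genotypes were moved from short days (21°C) to continuous light (16°C), and flowers beyond stage 4 were removed from the primary inflorescence. Each tube held 30 to 35 apices, and RNA from 2 tubes was combined into each of the 3 libraries per genotype. The labels call them technical triplicates and give no separately grown plants, so p-values measure the spread between pools of apices, which may be technical.

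The tapetum is the innermost cell layer of the anther wall. It surrounds the male meiocytes, feeds them, releases the microspores from their callose wall and then secretes the lipids and polyketides of sporopollenin, the polymer of the outer pollen wall. A chain of transcription factors works in it in the order DYT1, TDF1, AMS, MYB80 and MS1. Anther cell layers arise and pollen mother cells enter meiosis at flower stages later than those meant to be kept on the dissected apices.

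The libraries held between 50040048 and 69033269 counts, and WT replicate 3 was the shallowest. *VIP3* (AT4G29830) lay between 41.7 and 42.8 CPM in the WT libraries and between 5.77 and 7.18 CPM in *vip3-1*, so that its RNA was lower but still detected in the mutant libraries. When each of the other 5 libraries was taken in turn as the high one, no gene met the same cut-offs. With a 4-fold margin the number of genes was 188 for WT replicate 3, 1 each for WT replicates 1 and 2, and 0 for each *vip3-1* library. With a 2-fold margin it was 383 for WT replicate 3, 64 for *vip3-1* replicate 3 and between 1 and 11 for the other 4 libraries. The reverse pattern was rare. No gene was 8-fold lower in WT replicate 3 than in all other libraries, and 2 genes were 4-fold lower.

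**Figure D1:**
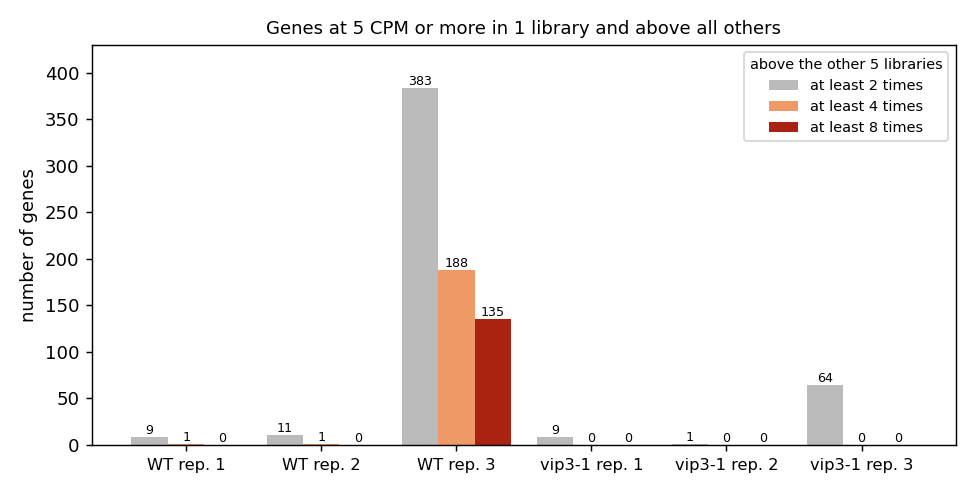
Number of genes (vertical axis) that reached 5 CPM in 1 library and were at least 2, 4 or 8 times above the other 5 libraries, for each of the 6 libraries. WT replicate 3 has 135 genes at 8 times, before the named genes were left out, and no other library has any.

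The stretches of DNA before the genes were read from the RefSeq assembly TAIR10.1, whose nuclear coordinates are those of TAIR10, the build of the files. Shown first is a divergent pair in which both genes are in the set. *AT1G15320* (annotated as a seed dormancy control protein) runs leftward from position 5274074 of chromosome 1, and *AT1G15330* (a cystathionine beta-synthase domain protein) runs rightward from position 5274271. Only 196 bases lie between the annotated starts (chr1:5274075-5274270, plus strand), and they hold the G-box letters CACGTG at 2 places, in capitals.
AT1G15320 and AT1G15330: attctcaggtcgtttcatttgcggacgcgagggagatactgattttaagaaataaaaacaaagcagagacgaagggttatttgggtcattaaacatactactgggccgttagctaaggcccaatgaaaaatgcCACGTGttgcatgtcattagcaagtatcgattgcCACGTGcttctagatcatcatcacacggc
A further 4 windows, each the 200 bases before the annotated transcript start in the gene's own direction, belong to genes whose products build or release the pollen wall. They are *A6* (chr4:8120359-8120558, minus strand), *AT5G62080* (chr5:24934485-24934684, minus strand), *AT5G52160* (chr5:21194844-21195043, plus strand) and *MS2* (chr3:3814031-3814230, plus strand). Capitals mark the E-box letters CANNTG, which basic helix-loop-helix factors such as AMS can bind, and the letters CCAACC.
A6: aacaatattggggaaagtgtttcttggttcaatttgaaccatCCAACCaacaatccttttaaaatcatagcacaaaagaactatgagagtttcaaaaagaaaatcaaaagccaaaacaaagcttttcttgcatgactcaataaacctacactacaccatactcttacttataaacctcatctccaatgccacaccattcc
AT5G62080: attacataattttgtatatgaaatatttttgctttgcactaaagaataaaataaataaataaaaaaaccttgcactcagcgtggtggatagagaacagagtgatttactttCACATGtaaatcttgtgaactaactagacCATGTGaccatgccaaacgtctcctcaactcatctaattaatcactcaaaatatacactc
AT5G52160: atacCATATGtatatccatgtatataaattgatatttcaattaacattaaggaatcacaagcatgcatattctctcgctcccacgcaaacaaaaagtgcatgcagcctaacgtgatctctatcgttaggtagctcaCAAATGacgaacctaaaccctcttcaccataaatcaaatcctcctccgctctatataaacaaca
MS2: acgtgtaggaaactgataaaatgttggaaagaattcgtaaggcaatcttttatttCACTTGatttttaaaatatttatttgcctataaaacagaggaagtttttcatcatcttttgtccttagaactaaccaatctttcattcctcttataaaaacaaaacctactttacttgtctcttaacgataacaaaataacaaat

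The share of windows with each of 7 short motifs was compared with that of all genes. Both strands of the 200 bases before the start were searched in the 80 genes of the set with an annotated leader of at least 10 bases and in all 22922 such genes. CANNTG was present in 52.5% of the set and 48.2% of all windows, and CACGTG, which is also a CANNTG, in 6.25% and 6.27%. CCAACC was present in 3.75% and 5.18%, AACCAAA in 17.5% and 14.5%, GATAA in 42.5% and 47.2%, and TATAAA in 47.5% and 41.3%. CATGCA was present in 10 of the 80 windows (12.5%) and in 6.78% of all. A match is only a match of letters, and none of these shares was tested.

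Across the set the level in WT replicate 3 ran from 5.02 to 311 CPM with a median of 10.1 CPM. The medians in WT replicates 1 and 2 were 0.130 and 0.306 CPM, and those in *vip3-1* replicates 1, 2 and 3 were 0.245, 0.168 and 0.404 CPM. Summed over the 125 genes the level was 3709 CPM in WT replicate 3. The sums were 100.02 and 176 CPM in WT replicates 1 and 2 and 109, 63.5 and 186 CPM in *vip3-1* replicates 1, 2 and 3. The set thus took 0.371% of the counts of WT replicate 3 and at most 0.0186% of those of any other library. The sum was steep at the top, since 6 genes made up 41.8% of it and 62 genes stayed under 10 CPM. In these bulk samples a larger number of cells of a type and more RNA per cell cannot be told apart.

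**Figure D2:**
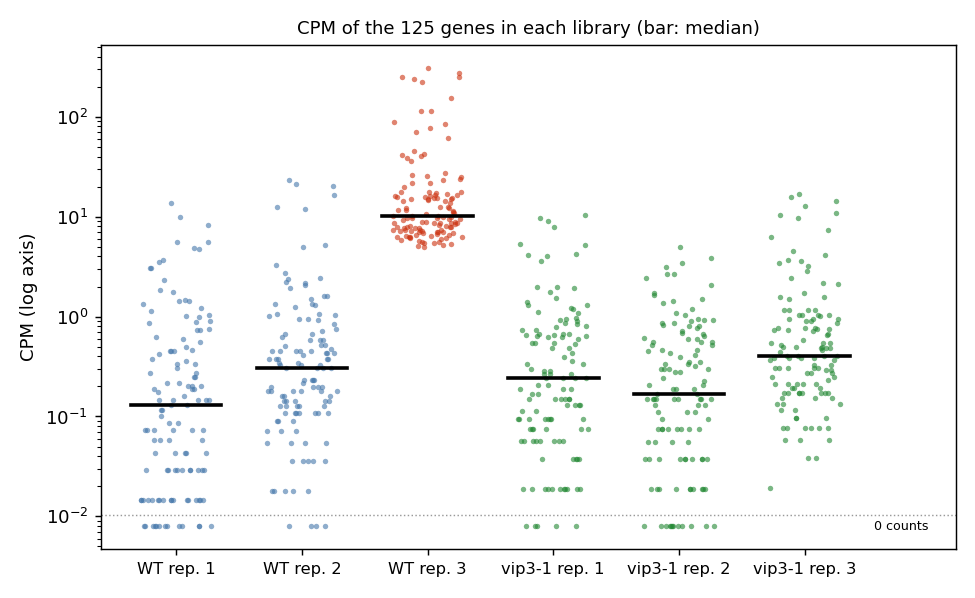
CPM on a log axis of the 125 genes in each of the 6 libraries, 1 point per gene with the median as a bar, and genes with 0 counts at the bottom. The median is 10.1 CPM in WT replicate 3, which chose the genes, and between 0.130 and 0.404 CPM in the others.

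The ratio of WT replicate 3 to the highest other library, with the floor of 0.1 CPM, ran from 8.31 to 146 with a median of 21.5, and 18 genes were above 50. For 9 genes the floor and not a library set the ratio. In the other 5 libraries the median count of the set lay between 9 and 21, and 48 genes had 10 or more counts in every library. At or under 3 counts were 46 genes in WT replicate 1, 18 in WT replicate 2, and 29, 36 and 6 in *vip3-1* replicates 1, 2 and 3. No gene had fewer than 251 counts in WT replicate 3. Such a floor covers counting error only.

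The cut-off fell in a continuous range. Just inside it were *MEE20* with a ratio of 8.31, *PUM12* with 8.53 and *AT1G15320* with 8.57. Just outside were *HAC2* with a ratio just under 8, *AT2G42940*, an AT-hook protein gene, with 7.97 and *AT1G65200* with 7.91. A further 53 genes at 5 CPM or more had a ratio between 4 and 8. Per length of transcript, in FPKM (fragments per kilobase of transcript, scaled to the mapped fragments), WT replicate 3 was again the highest of the 6 libraries for all 125 genes and the ratio reached 8 for 118 of them.

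Several of the genes with the highest levels encode proteins that the tapetum secretes. *AT4G20420* (chromosome 4, 11016970 to 11017623) and *AT5G44540* (chromosome 5, 17941287 to 17941646) are the only 2 genes that the reference describes as tapetum specific protein TAP35/TAP44, and both were in the set. *AT4G20420* had 5.63, 5.03 and 311 CPM in WT replicates 1, 2 and 3 and 7.88, 4.93 and 12.8 CPM in the *vip3-1* replicates. *AT5G44540* had 3.04, 12.5 and 253 CPM in WT and 4.16, 1.64 and 10.5 CPM in *vip3-1*. Per length *AT5G44540* was the highest gene of the set, at 1486 FPKM in WT replicate 3, against 635 FPKM for *AT4G20420*. Their coding sequences share 59.7% of bases and no identical run longer than 15 bases. For scale, the same measure gave 53.0% for *AT1G09880* and *OPT2* and 50.4% for *AT5G09560* and *PUM21*, pairs in the set with unlike descriptions. It gave 29.0% for *JP630* and *AT1G23810*, whose coding lengths differ more. The whole of *AT4G20420* lies opposite *AT4G20430*, which had 25.2 CPM in WT replicate 3 and up to 35.6 CPM elsewhere, and the strand of the reads is not given in the sources used here.

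*A6* (AT4G14080, chromosome 4, 8118537 to 8120358, listed as *MEE48* in the reference) encodes a glucanase-like protein linked to the dissolution of callose, the wall that holds the tetrad of microspores together. Its level was 8.30, 16.4 and 272 CPM in WT replicates 1, 2 and 3 and 10.3, 3.85 and 14.4 CPM in the *vip3-1* replicates. *QRT2*, a polygalacturonase gene that acts when the microspores of a tetrad part, had 0.0145, 0.0540 and 7.29 CPM in WT. In *vip3-1* it had 0.0940, 0.617 and 0.0193 CPM, so that its highest value among the other 5 libraries came from *vip3-1* replicate 2.

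The 4 genes of lipid transfer proteins came from a family of 106 genes with this description. *AT5G62080* and *AT5G52160* encode members of the type III class, secreted by the tapetum to the pollen wall. *AT5G62080* had 5.58, 20.4 and 249 CPM in WT replicates 1, 2 and 3 and 5.19, 2.09 and 10.8 CPM in *vip3-1*. *AT5G52160* had 13.8, 21.1 and 224 CPM in WT and 8.97, 2.65 and 17.0 CPM in *vip3-1*. *AT3G52130* reached 241 CPM and *AT3G07450* reached 41.7 CPM in WT replicate 3. In *AT3G52130*, *AT5G52160* and *AT5G62080* WT replicate 2 was the second highest library, and the 3 *vip3-1* libraries kept the order of replicate 3, 1 and 2. Coding identity among the 4 was at most 56.4%, so none is a near copy of another.

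Fasciclin-like arabinogalactan proteins are cell surface glycoproteins with adhesion domains. Of the 10 genes whose description held the word Fasciclin-like or fasciclin-like, 4 were in the set. Descriptions that spell the word in capitals were not counted, so 10 need not be the whole family. *AT5G26730* had 4.71, 5.24 and 153 CPM in WT and 4.21, 1.49 and 7.35 CPM in *vip3-1*. *AT5G16920* had 0.275, 0.720 and 61.5 CPM in WT and 1.92, 0.803 and 4.14 CPM in *vip3-1*. *FLA20* and *AT1G30800* reached 19.9 and 11.7 CPM in WT replicate 3. Of *AT1G30800*, 1177 bases lie opposite *AT1G30810*, at 38.8 CPM in WT replicate 3 and up to 30.5 CPM elsewhere. Of the genes matched by this word outside the set, 3 were at 5 CPM or more in at least 1 of the 6 libraries. In the set, *AT5G26730* also passed 5 CPM in WT replicate 2 and in *vip3-1* replicate 3.

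Of the sporopollenin genes, *MS2* (AT3G11980, chromosome 3, 3814231 to 3817117) and *ABCG26* (AT3G13220, chromosome 3, 4247675 to 4250703) were in the set. *MS2* encodes a fatty acyl reductase that makes fatty alcohols for the pollen wall. Its level was 1.33, 1.01 and 87.8 CPM in WT replicates 1, 2 and 3 and 5.30, 2.45 and 6.26 CPM in *vip3-1*. *ABCG26* encodes the transporter that exports polyketide precursors from the tapetum. It had 0.217, 2.07 and 77.8 CPM in WT and 1.54, 0.710 and 2.87 CPM in *vip3-1*. Another 6 genes of a list of 9 for sporopollenin synthesis and export met the cut-offs and had been left out by name. The last of the 9, *TKPR2*, was also highest in WT replicate 3, at 42.2 CPM and 3.63 times the next library.

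*UND* (AT4G12920, chromosome 4, 7568286 to 7569455) encodes UNDEAD, an aspartic protease of the tapetum and a target of MYB80. It gave the largest ratio of the set. It had 2 counts in each of WT replicates 1 and 2, 729 in WT replicate 3 and 3, 2 and 4 in the *vip3-1* libraries, which put WT replicate 3 at 146 times the floor of 0.1 CPM. At or under 3 counts in 4 libraries, it was not detectable there at this depth. Ratios above 80 were otherwise seen in *AT1G30780*, an F-box associated gene, at 99.3, and *AT3G58280*, which encodes a MATH domain protein, at 87.1. *AT1G30780* had 0.0579, 0.108 and 40.1 CPM in WT and 0.0752, 0 and 0.404 CPM in *vip3-1*. *AT3G58280* had 0, 0.0360 and 8.71 CPM in WT and 0.0188, 0.0374 and 0.0770 CPM in *vip3-1*. The next ratios belonged to *AT3G12540* (78.3), *AT2G29770* (69.9), *AT5G61110* (67.5), *AT1G24230* (64.5), *AT2G33010* (62.8), *AT4G05310* (59.8) and *AT5G44330* (59.4), all between 5.98 and 16.0 CPM in WT replicate 3.

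Other genes of the set have varied annotations. *SWEET3*, of the family of sugar transporters, had 0.116, 2.40 and 45.0 CPM in WT and 0.677, 0.336 and 2.43 CPM in *vip3-1*. *SDT*, which transfers sinapoyl groups to spermidine, reached 8.61 CPM against at most 0.539 CPM elsewhere. *GA2OX6*, an oxidase that inactivates gibberellins, reached 6.87 CPM against at most 0.207 CPM. *AT1G09880*, annotated as a rhamnogalacturonate lyase, reached 70.2 CPM and the leucine-rich repeat gene *AT3G59510* reached 84.9 CPM. *AT3G63095*, with tetratricopeptide repeats, reached 115 CPM against at most 9.72 CPM in *vip3-1* replicate 3.

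The set also held 1 named gene of meiosis, *MS5*, and genes with annotations of protein and RNA turnover. A list of 8 meiosis genes had 0 in the set. *MS5* (AT4G20900, chromosome 4, 11184103 to 11185844, also called *TDM1*) is needed for male meiocytes to leave meiosis. It had 0.116, 0.144 and 9.77 CPM in WT and 0.169, 0.299 and 0.385 CPM in *vip3-1*, and 457 of its bases lie opposite *AT4G20890*, a gene at 116 CPM in WT replicate 3 and up to 222 CPM elsewhere. The adaptor genes *SK13* and *SK5* and the scaffold gene *CUL2*, which encode parts of ubiquitin ligases of the SCF kind, reached 7.41, 5.38 and 15.9 CPM in WT replicate 3 against at most 1.04 CPM elsewhere. Ubiquitin carboxyl-terminal hydrolases gave 5 of 42 genes, and ubiquitin-like or ubiquitin-associated domain proteins 5 of 57. Genes with pumilio, poly(A) or RNA-binding in their description gave 7 of 269. Among them were *PAB6*, which binds poly(A) tails, at 21.7 CPM, and the pumilio genes *PUM12* and *PUM21* at 6.25 and 6.59 CPM. Of *PAB6*, 538 bases lie opposite *AT3G16370*, at 68.1 CPM in WT replicate 3 and up to 135 CPM elsewhere. The families were picked after the values were seen and their shares were not tested.

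Of a list of 9 tapetum transcription factors WT replicate 3 was the highest library for 4. *AMS* and *MYB80* met the cut-offs and are missing from the set only because they were left out by name, and the other 7 did not meet them. Along the chain *DYT1*, *TDF1*, *AMS*, *MYB80* and *MS1*, WT replicate 3 stood at 0.0321, 0.265, 10.3, 10.8 and 0.111 times the highest other library. It was thus above the other libraries in the middle of the chain and below the highest of them at both ends. *DYT1* had 4 counts in WT replicate 3 and also 4 in *vip3-1* replicate 3. *MS1* had 3 counts in WT replicate 3 and at most 28 in any library. Of a list of 19 secreted, pollen coat and callose wall products WT replicate 3 was the highest library for 8. The list had 4 genes in the set (*A6*, *UND*, *AT5G52160* and *AT5G62080*), and *ATA1*, left out by name, was also above 8 times. *A9* just missed the ratio at 7.24, with 66.7 CPM. *KNS4* and *QRT3* were also highest in WT replicate 3, at 2.75 and 1.86 times the next library. The remaining genes of the list were each highest in another library, among them the following 3. *A7* had 0.333, 1.57 and 0.540 CPM in WT and 5.44, 2.28 and 11.9 CPM in *vip3-1*. *SHT*, a spermidine hydroxycinnamoyl transferase of the pollen coat, had 0.0869, 1.08 and 0.679 CPM in WT and 4.06, 1.21 and 14.8 CPM in *vip3-1*. *GRP17*, an oleosin of the pollen coat, had 0.217, 1.01 and 0.699 CPM in WT and 5.98, 1.42 and 9.84 CPM in *vip3-1*.

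Other lists of markers were examined in the same way. Of 8 meiosis genes, 1 was highest in WT replicate 3. This was *MMD1*, a PHD finger gene of male meiocytes, with 0.0724, 0.234 and 2.74 CPM in WT and at most 0.131 CPM in *vip3-1*, which was 11.7 times the next library but under 5 CPM. None of 8 pollen and sperm genes was highest in WT replicate 3, and their summed level was 8.58, 30.6 and 31.1 CPM in WT and 12.9, 21.7 and 73.2 CPM in *vip3-1*. The corresponding counts were 2 of 5 genes for early anther specification, 3 of 7 for carpels and ovules, 1 of 6 for embryo and seed, 0 of 5 for vascular tissue and 1 of 8 for shoot and floral meristems, and none of these genes reached 8 times. Of 5 photosynthesis genes 4 were highest in WT replicate 3, with summed levels of 4612, 4835 and 6671 CPM in WT and 3338, 2091 and 2496 CPM in *vip3-1*. The part that other cell types had in the values of the 125 genes was not tested.

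**Figure D3:**
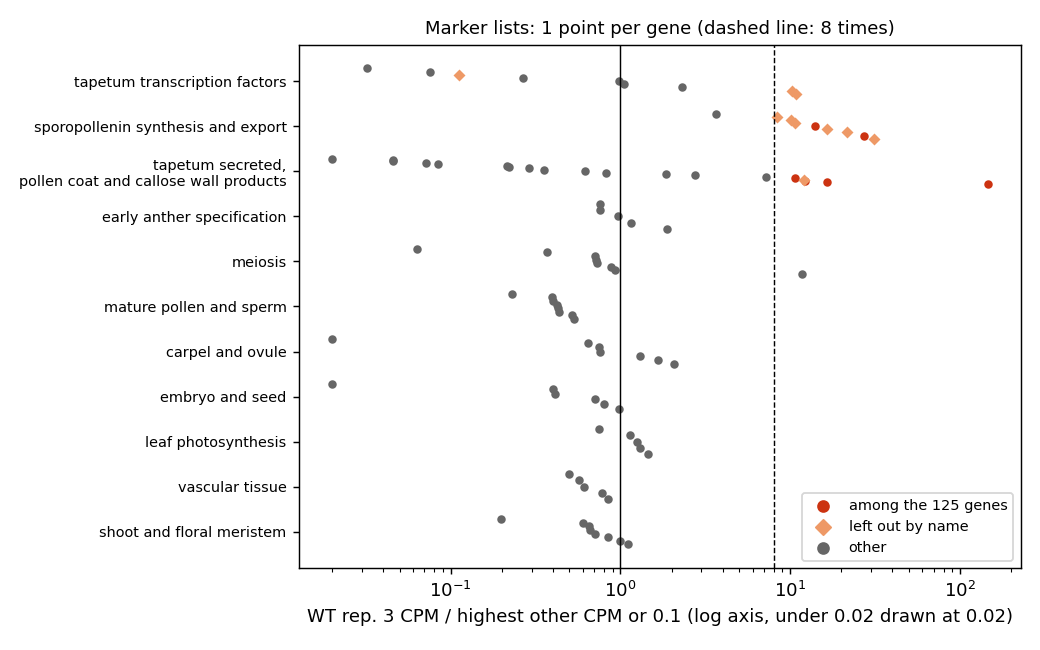
Ratio on a log axis of the CPM in WT replicate 3 to the highest CPM in the other 5 libraries (floor 0.1 CPM), 1 point per gene, for 11 marker lists. The sporopollenin list has 8 of its 9 genes at or beyond the dashed line at 8 times, while *A7*, *SHT* and *GRP17* lie under 0.1.

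The remaining 5 libraries entered the rule only through the highest of them. Among them *vip3-1* replicate 3 was highest for 67 of the 125 genes (53.6%), WT replicate 2 for 37, *vip3-1* replicates 2 and 1 for 9 and 8, and WT replicate 1 for 4. For comparison, among 7919 other genes whose mean over the 5 libraries lay in the same range (0.0345 to 5.79 CPM), *vip3-1* replicate 3 was highest for 27.7%, WT replicate 1 for 24.0% and WT replicate 2 for 19.4%. Within *vip3-1*, replicate 3 exceeded both other libraries for 99 of the 125 genes (79.2%, against 44.6% of the other genes). Within WT, replicate 2 exceeded replicate 1 for 98 genes (78.4%, against 48.1%). The genes share their libraries, so these shares carry no p-value. In FPKM, *vip3-1* replicate 3 was highest for 64 genes. Among the 118 genes with 10 or more counts over the 5 libraries it was highest for 61.

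**Figure D4:**
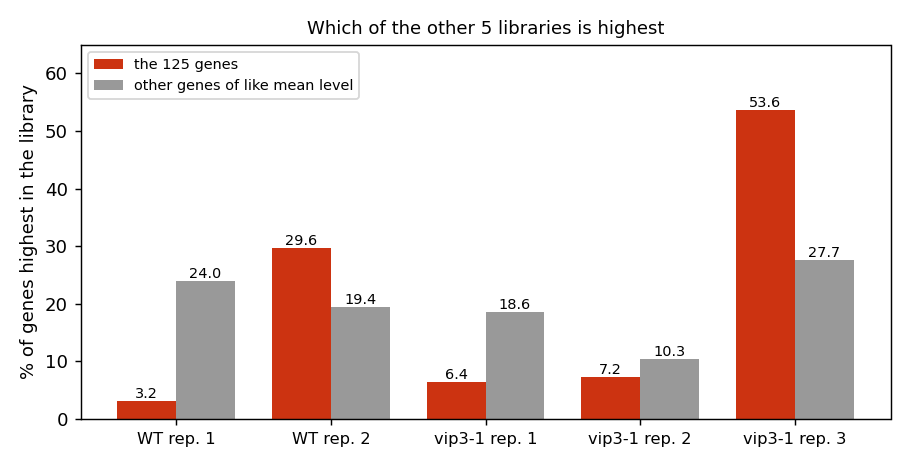
Percentage of genes that are highest in each of the 5 libraries other than WT replicate 3, for the 125 genes and for 7919 other genes of like mean level. *vip3-1* replicate 3 is highest for 53.6% of the 125 genes and 27.7% of the others.

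*vip3-1* was also compared with WT replicates 1 and 2 in a fit over 20928 genes (edgeR's quasi-likelihood test, Benjamini-Hochberg adjustment over all genes tested). These 5 libraries took part in the choice as well, since the highest of them was the base of the ratio and a gene high in any of them could not enter. The calls are therefore not free of that choice, and their share is given as a description. Of the 125 genes, 42 fell under the filter on low counts in these 5 libraries and 83 were tested. The test called 12 of the 83 (14.5%), against 38.5% of all genes tested. Of these, 8 were higher in *vip3-1*, against 18.9% of all genes that were higher, and 4 were lower, against 19.6%. The median log2 fold change of the 83 was 0.10, and that of all genes was -0.00074. When the model took the replicate number as a block it also called 12 genes, of which 8 were shared, but 4 were then higher, against 19.1% of all genes, and 8 were lower, against 17.2%. The block added calls for *AT3G07450*, *AT3G17675*, *AT3G55570* and *AT3G59510*, all lower in *vip3-1*, and ended those of *NUC-L2*, *BPS3*, *AT1G09880* and *PIP2;4*. Without *vip3-1* replicate 1, 2 or 3, edgeR without the block called 7 of 78, 11 of 81 and 13 of 70 genes of the set. The numbers over all genes tested were 6478 of 20755, 5797 of 20826 and 8307 of 20715. Leaving out WT replicate 1 or 2 leaves a single WT library. The median log2 fold change of the tested genes of the set was then -0.20 or 0.97.

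The 4 genes that were lower in *vip3-1* included those with the 2 smallest adjusted p-values of the set. *XTH25* (AT5G57550, chromosome 5, 23304782 to 23306440) encodes an enzyme that cuts and rejoins xyloglucan chains of the cell wall. It had 0.623 and 0.630 CPM in WT replicates 1 and 2 and 0.0752, 0.0374 and 0.0578 CPM in *vip3-1*, a log2 fold change of -3.34 (SE 0.43, adjusted p = 0.0034 in edgeR's test). The *vip3-1* values rest on 4, 2 and 3 counts, and the call was kept in all 11 alternatives that could test the gene. *AT1G15330*, of the divergent pair shown above, had 9.92 and 11.9 CPM in WT and 1.97, 3.44 and 3.18 CPM in *vip3-1*. It fell by 1.85 on the log2 scale (SE 0.24, adjusted p = 0.00363 in edgeR's test), a call kept in all 12 alternatives. Its neighbour *AT1G15320*, across the 196 bases, had 0.449 and 0.450 CPM in WT and 0.621, 0.859 and 1.04 CPM in *vip3-1*, with a log2 fold change of 0.98 (SE 0.34, adjusted p = 0.063 in edgeR's test) that did not pass the threshold. Both genes of the pair were high in WT replicate 3, at 114 and 8.91 CPM, but their differences between the genotypes had opposite signs in the other libraries, a contrast between genes that was not itself tested. *AT1G23700*, a protein kinase gene, and *AT4G33870*, a peroxidase gene, fell by 1.93 and 0.97 on the log2 scale (adjusted p = 0.0292 and 0.0407 in edgeR's test).

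Of the 8 genes that were higher in *vip3-1*, *SRO3* (AT1G70440, chromosome 1, 26548952 to 26550636) changed most. Of its bases, 265 lie opposite *AT1G70430*, at 1.84 CPM in WT replicate 3 and up to 1.86 CPM elsewhere. *SRO3* is a relative of *RCD1*, a gene of stress responses. It had 0.0579 and 0.126 CPM in WT replicates 1 and 2 and 0.640, 0.822 and 1.17 CPM in *vip3-1*, a log2 fold change of 3.34 (SE 0.52, adjusted p = 0.00565 in edgeR's test), called in all 11 alternatives that could test it. *MS2* had 1.17 ± 0.229 CPM in WT (SD, n = 2) and 4.67 ± 1.98 CPM in *vip3-1* (SD, n = 3), a log2 fold change of 2.06 (SE 0.42, adjusted p = 0.0127 in edgeR's test). Its call was lost without WT replicate 1 and without WT replicate 2. *MS2* was the only gene on the tapetum lists among the 12. *AT5G37470*, of unknown function, had 0.203 and 0.234 CPM in WT and 0.865, 0.897 and 0.751 CPM in *vip3-1*, a log2 fold change of 2.02 (SE 0.33, adjusted p = 0.00644 in edgeR's test). Its tandem neighbour *AT5G37460* shares 82.8% of its coding bases and a run of 73, so reads of this pair may have been split between them.

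*NUC-L2* (AT3G18610, chromosome 3, 6404053 to 6407946), one of a pair of nucleolin genes that act on ribosomal RNA genes in the nucleolus, had 0.0724 and 0.198 CPM in WT and 0.734, 0.448 and 0.732 CPM in *vip3-1*, a log2 fold change of 2.33 (SE 0.54, adjusted p = 0.0187 in edgeR's test). This call was lost with the replicate block (adjusted p = 0.0665 in edgeR's test). *AT2G22510*, for a hydroxyproline-rich glycoprotein, had 2 counts in each of WT replicates 1 and 2. Its summed counts of 4 in WT and 36 in *vip3-1* give a ratio of 7.07 (95% exact interval 2.53 to 27.3, counting error only). *BPS3*, *AT1G09880* and *PIP2;4*, which encodes an aquaporin, had log2 fold changes of 1.27, 0.84 and 1.45 (adjusted p = 0.0337, 0.0409 and 0.0441 in edgeR's test). With the block, adjusted p rose to 0.106, 0.0595 and 0.0924 for these 3 genes, and *PIP2;4* was called in none of its 11 alternatives.

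**Figure D5:**
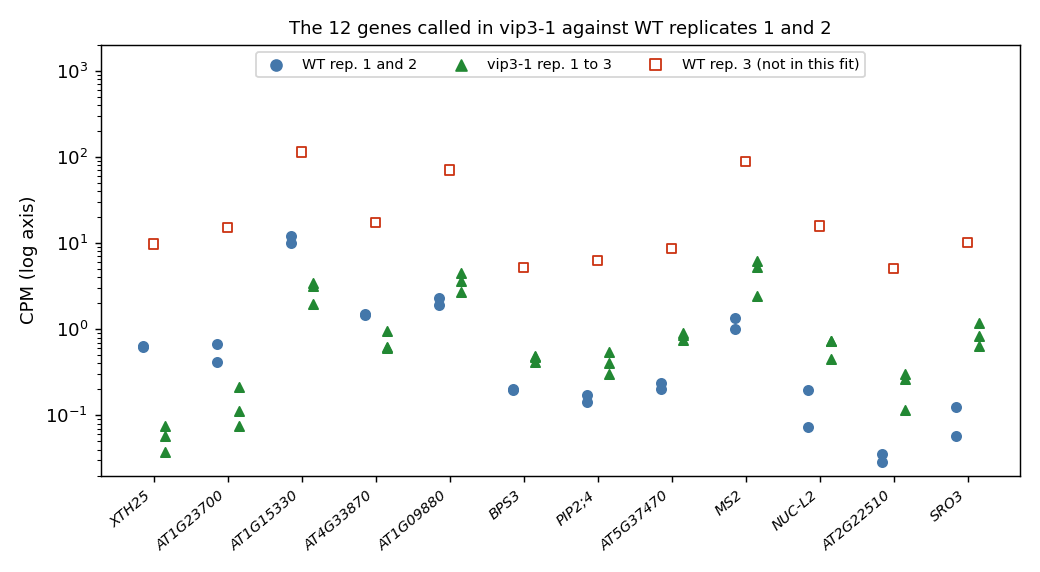
CPM on a log axis of the 12 genes called in *vip3-1* against WT replicates 1 and 2, ordered by log2 fold change, with 1 point per library. Filled points are the 5 libraries of the fit, and open squares are WT replicate 3, which lies above them all and was not in the fit.

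In the comparison with all 6 libraries, which contains the values that chose the genes, all 83 genes tested had a negative log2 fold change, which the choice of genes largely fixes. The test called 3 of the 83 lower in *vip3-1*, *XTH25*, *AT1G15330* and *AT1G23700*, against 16.1% of all genes tested. With the replicate block it called 8, against 17.4%, and DESeq2 called 43, against 19.4%. Without *vip3-1* replicate 1, 2 or 3 edgeR called 0 in each case (2, 2 and 6 at an unadjusted p under 0.05), against 3238, 2673 and 3698 over all genes. The number was 11 without WT replicate 1 and 5 without WT replicate 2, against 4469 and 4164 over all genes. It was the 12 described above without WT replicate 3. Of those 12, 8 were higher, so that *MS2*, *SRO3* and 6 others changed sign between the fits with and without WT replicate 3. Nothing is read from these counts, since 1 library decides them.

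Several of the genes sit side by side. Of the 124 protein-coding genes of the set, 17 were direct neighbours of another gene of the set, in 9 pairs, and 32 lay within 5 genes of another. These counts were not compared with those of other sets of genes of this size, so no clustering is read from them. In 7 of the 9 pairs the coding sequences shared over 60% of bases. The ARM repeat genes *AT5G18320*, *AT5G18330* and *AT5G18340* on chromosome 5 share between 75.1 and 77.9% of coding bases. They reached 16.3, 7.25 and 9.57 CPM in WT replicate 3, against at most 0.468 CPM in any other library. The kelch repeat genes *AT2G29770* and *AT2G29780* share 73.7%, the kinase genes *AT5G60080* and *AT5G60090* share 70.6%, and *SK13* and *SK5* share 70.8%. Paired amphipathic helix genes, whose domain is known from corepressors of the SIN3 kind, gave 4 of the 15 genes with this description. *AT1G24250* and *AT1G23810* share 89.9% of coding bases and a run of 97, the closest pair compared. Their levels in WT replicate 3 were 7.23 and 6.35 CPM, and how much of either belongs to the other copy was not tested.

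By chromosome, the set had 36, 14, 26, 12 and 37 genes on chromosomes 1 to 5. This is 29.6% on chromosome 5, which holds 22.5% of the genes matched to the reference, and 9.60% on chromosome 4, which holds 15.4%. The median coding length was 1158 bases, against 1065 for all protein-coding genes. A single coding exon was found in 27.4% of the set and 23.2% of all. Overlap with another gene of the table was found for 17 genes, for 16 of them on the opposite strand, and in 13 cases the partner was outside the set and at 5 CPM or more in WT replicate 3. The share of reads that came from those partners was not tested.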

How the data were processed

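Total RNA of dissected shoot apices was sequenced in 6 libraries, 3 of WT and 3 of *vip3-1*, grouped by their titles. Per the submitters' processing notes, the tools were Trimmomatic, TopHat2 2.0.6, Bowtie2 2.0.5, SAMtools 1.2 and Cufflinks 2.1.1 with TAIR10. Read strand and layout are not given in the sources used here. The deposited estimated counts per gene were not scaled by the authors. Of these, 1.47% were not whole, none of them in the 125 genes, and all were rounded for tests. The deposited FPKM values were scaled by the authors for transcript length and mapped fragments. A deposited Cuffdiff table holds the authors' group means, log2 fold changes, scores and p-values and was not used. Every count and FPKM column matched 1 library.

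CPM are counts over the column sum. The set, the marker lists and the families were chosen with earlier results of these data known. Fits used edgeR 4.0.16 (TMM, filter by expression, quasi-likelihood test, adjusted p under 0.05) in R 4.3.3, and alternatives used DESeq2 1.42.0 and limma 3.58.1 on log2(FPKM + 1) and log2(FPKM + 0.1). The scripts were tested on simulated data. Libraries share replicate numbers, and same-numbered libraries deviated together from their group means (r = 0.22, 0.19 and 0.37 across 20680 genes for numbers 1, 2 and 3), so a fit with the number as a block is given where it changes a call. This pairing comes from the data and the shared numbers, not from a stated common harvest, and WT replicate 1 correlated more with *vip3-1* replicate 2 (0.29). No pair of libraries of the same genotype agreed within sampling noise.

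Named were the 12 genes highest in WT replicate 3, the 10 with the largest ratio, those on a marker list, those called, those next to the cut-off, neighbours and families with at least 3 genes, with at most 4 per family. Further genes were named for their known role after their values were seen. Genes without a description are not named. Windows before genes were searched with Python 3.11.15.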

Additional observations from a re-analysis of the deposited data

How the results depend on the processing

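The number of genes in the set was 83 with a ratio of at least 16, 327 with a level of 1 CPM or more and 28 with 20 CPM or more. It was 178 with a ratio of 4, 141 in FPKM (104 shared), 118 after TMM scaling (all shared) and 125 to 135 when 1 of the other libraries was left out. The count of genes highest in *vip3-1* replicate 3 was close to its value of 67 in both alternatives.

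For *vip3-1* against WT replicates 1 and 2, limma called 3953 genes on log2(FPKM + 1) and 4084 on log2(FPKM + 0.1), and leaving out 1 library gave 2978 to 8307. Of the set, limma on log2(FPKM + 1) called 7 of 83. Leaving out 1 *vip3-1* library gave 7 to 13 calls among 70 to 81 genes of the set tested. Of these, 5 to 9 were higher and 2 to 8 lower, against 2925 to 4061 higher and 2872 to 4246 lower over all genes. Of the calls, 4 were higher and 8 lower with the replicate block, which takes the shared numbers as a pairing. Limma called 3 higher on log2(FPKM + 1) and 5 on log2(FPKM + 0.1), against 1907 and 2059 over all genes. A minimum of 10 counts in every library left 2 lower of 48 tested, against 3878 of 19456 over all genes. The block changed no call of the set other than those named above, and no fold change of a named call reversed. The calls of *XTH25*, *AT1G15330* and *SRO3* stood without any single library, and each of the other 9 was lost without at least 1.

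For the comparison with all 6 libraries, limma called 3901 and 4011 genes on the 2 FPKM scales, and leaving out 1 library gave 2673 to 8055. In the set, DESeq2 called 43 of 83 and the block 8 of 83, against 8084 and 7388 of 20690 over all genes. A minimum of 10 counts in every library gave 1 of 48, against 6103 of 19351. Limma called 0 of 83 on both scales (1 and 3 at an unadjusted p under 0.05), against the 3901 and 4011 of 20690 over all genes. Leaving out 1 library gave 0 to 12 calls among 83 to 102 genes of the set tested. The cause of these differences was not tested.

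The median of the set was at most 0.404 CPM outside WT replicate 3, and 42 genes were too low to be tested without it. The high level itself rests on 1 library with no replicate of its own. WT then has 2 libraries, and without either of them the remaining library is assumed to vary like the *vip3-1* group.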
